A study of Mus musculus with 6 samples.

Results

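The genes described here are those of the mouse major histocompatibility complex (MHC) and of antigen presentation. They were chosen by name: every symbol in the table that begins with H2-, together with B2m, Tap1, Tap2, Tapbp, Tapbpl, Psmb8, Psmb9, Psmb10, Nlrc5, Ciita, Cd74, Erap1, Calr and Pdia3. The rule found 53 of the 21006 genes in the table, 39 of them with an H2- symbol, and used no measured value. RNA was sequenced from neural crest cells of the branchial arches, the embryonic swellings that give rise to the jaws and throat, at E11.5. Cells were released with papain and sorted for the red fluorescent protein TdTomato, whose gene Wnt1-cre activates in the neural crest lineage.

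The DKO (double knockout) group held 3 libraries with the genotype Ehmt1f/f and Ehmt2f/f, and the control group held 3 libraries with Ehmt1+/+ and Ehmt2+/+. Both groups carried Rosa26 TdTomato/+ and Wnt1-cre, so the reporter and the recombinase were common to them. Ehmt1 and Ehmt2 encode GLP and G9a, which place mono- and dimethyl marks on lysine 9 of histone H3. The labels do not give the strain, nor whether a library is 1 embryo or a pool, so the p-values measure the spread between these libraries. Ehmt2 itself lies inside the MHC region of chromosome 17. All DKO libraries carried the floxed Ehmt2 chromosome, so deletion of Ehmt2 and a difference in the MHC haplotype linked to the floxed allele cannot be told apart in this design.

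MHC class I molecules are a heavy chain, encoded by genes such as H2-K1 and H2-D1, paired with the light chain beta-2 microglobulin (B2m). Proteasomes cut cytosolic proteins into peptides, the transporter Tap1/Tap2 carries them into the endoplasmic reticulum, and tapasin (Tapbp), calreticulin (Calr) and Pdia3 help load them. Class II molecules are pairs of alpha and beta chains that professional antigen-presenting cells use, guided by the invariant chain Cd74, and their genes are switched on by the transactivator Ciita, as Nlrc5 does for class I genes. Embryonic cells are known for low class I levels.

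Among these genes, H2-Eb2, a class II beta chain gene, was higher in DKO cells, and it was the only 1 of the 27 tested genes of the group that edgeR called (adjusted p below 0.05, adjusted over all 14555 tested genes). Over all tested genes, 3.01% were called in either direction, 2.19% higher and 0.818% lower. H2-Eb2 stood at 1.18 ± 0.458 CPM (counts scaled to the library total) in the DKO group and 0.154 ± 0.0768 CPM in the control group (mean ± SD over 3 libraries), a 7.41-fold difference at a low level. The 7 genes with a mean of at least 10 CPM, which include B2m, Calr and Pdia3, gave no call, and their log2 fold changes of DKO over control lay between -0.32 and 0.22. All 53 are accounted for as follows: 11 had no count in any library, 15 had counts but too few for the expression filter, and 27 were tested. The median log2 fold change of those 27 was -0.02, beside -0.01 for all tested genes, with 13 above and 14 below 0.

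The letters near the start of the 2 beta chain genes H2-Eb1 and H2-Eb2 are shown because 1 of these neighbours was called and the other was not, and those of B2m, H2-K1, H2-D1 and H2-M3 because they share a spaced pair of motifs. Of the 53 genes, 41 matched the RefSeq promoter table (GRCm38.p6, which is mm10), with 44 windows of 300 bases that run from 250 bases before to 50 after a transcript start. The search covered both strands for the Y box (CCAAT, or ATTGG on the other strand), bound by the NF-Y factor, the core of the X2 box (TGACG), and the core of the interferon response element (GAAA, any 2 letters, GAAA). Capitals mark a Y box in the windows of H2-Eb2 (chr17:34325425-34325724, plus strand) and H2-Eb1 (chr17:34305617-34305916, plus strand).
H2-Eb2: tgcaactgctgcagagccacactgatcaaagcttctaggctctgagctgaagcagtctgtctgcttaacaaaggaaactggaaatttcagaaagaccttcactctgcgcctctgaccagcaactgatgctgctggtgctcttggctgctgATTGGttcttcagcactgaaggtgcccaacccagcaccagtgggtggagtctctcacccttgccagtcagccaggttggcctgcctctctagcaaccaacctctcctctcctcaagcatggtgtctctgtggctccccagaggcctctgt
H2-Eb1: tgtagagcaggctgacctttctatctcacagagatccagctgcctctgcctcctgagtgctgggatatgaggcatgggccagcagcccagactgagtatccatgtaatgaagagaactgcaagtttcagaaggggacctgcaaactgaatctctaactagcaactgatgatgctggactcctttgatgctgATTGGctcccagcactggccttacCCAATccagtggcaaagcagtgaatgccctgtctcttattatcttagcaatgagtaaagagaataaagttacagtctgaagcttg
The H2-Eb2 window held 1 Y box, with its first letter 100 bases before the RefSeq transcript start that the window surrounds, a start inside the gene span given further on, and the H2-Eb1 window held 2. Neither held the exact letters TGACG or the interferon element core on either strand. An X2 box with other letters would be missed by this search.

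A Y box was present in 37 of the 44 windows (84.1%), against 37.4% of all 32851 windows in the table. The X2 core was present in 17 of 44 (38.6%), against 20.8% of all windows. The interferon element core was found in 4 of 44 (9.09%), those of B2m, Erap1, H2-T22 and H2-T23, against 3.44% of all. A further pattern was noticed after the matches were seen: TGACG, then 20 letters, then ATTGG. It was present in 5 of the 44 windows, which belong to 4 genes, and in 31 of 32851 windows (0.0944%). Capitals mark the letters of this pattern; the H2-M3 stretch holds a further Y box, left in lower case.
B2m (chr2:122147609-122147638, plus strand): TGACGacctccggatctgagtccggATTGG
H2-K1 (chr17:34000359-34000388, minus strand): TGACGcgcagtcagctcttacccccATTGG
H2-D1 (chr17:35262993-35263022, plus strand): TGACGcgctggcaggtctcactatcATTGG
H2-M3 (chr17:37270188-37270217, plus strand): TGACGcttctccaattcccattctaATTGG
None of these 4 genes was called in the fit, and their log2 fold changes had both signs (-0.32 for B2m, -0.45 for H2-K1, 0.61 for H2-D1 and -0.05 for H2-M3). The signs of H2-K1 and H2-M3 differed in some alternative fits. The matches are of letters only and do not show that a factor bound there.

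Total counts lay between 23414466 and 44538260 per library. Ehmt2 (chromosome 17, 34898463 to 34914073) measured 128 ± 11.3 CPM in the DKO and 355 ± 7.13 CPM in control libraries (log2 fold change -1.47), and Ehmt1 (chromosome 2) measured 148 ± 18.2 and 259 ± 8.92 CPM (log2 fold change -0.81). Every DKO library was below every control library for both. The 12 neural crest mesenchyme markers summed to 2223 ± 250 CPM in the DKO and 2448 ± 222 CPM in control libraries, and edgeR called 0 of them (3 had an unadjusted p under 0.05). Erythroid genes summed to 19.6, 58.1 and 331 CPM in DKO replicates 1 to 3 and to 108 to 188 CPM in the controls. DKO replicate 3 thus lay above every control library, and DKO replicates 1 and 2 lay below every control library. In bulk RNA, fewer cells of a type and less RNA per cell cannot be told apart.

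**Figure D1:**
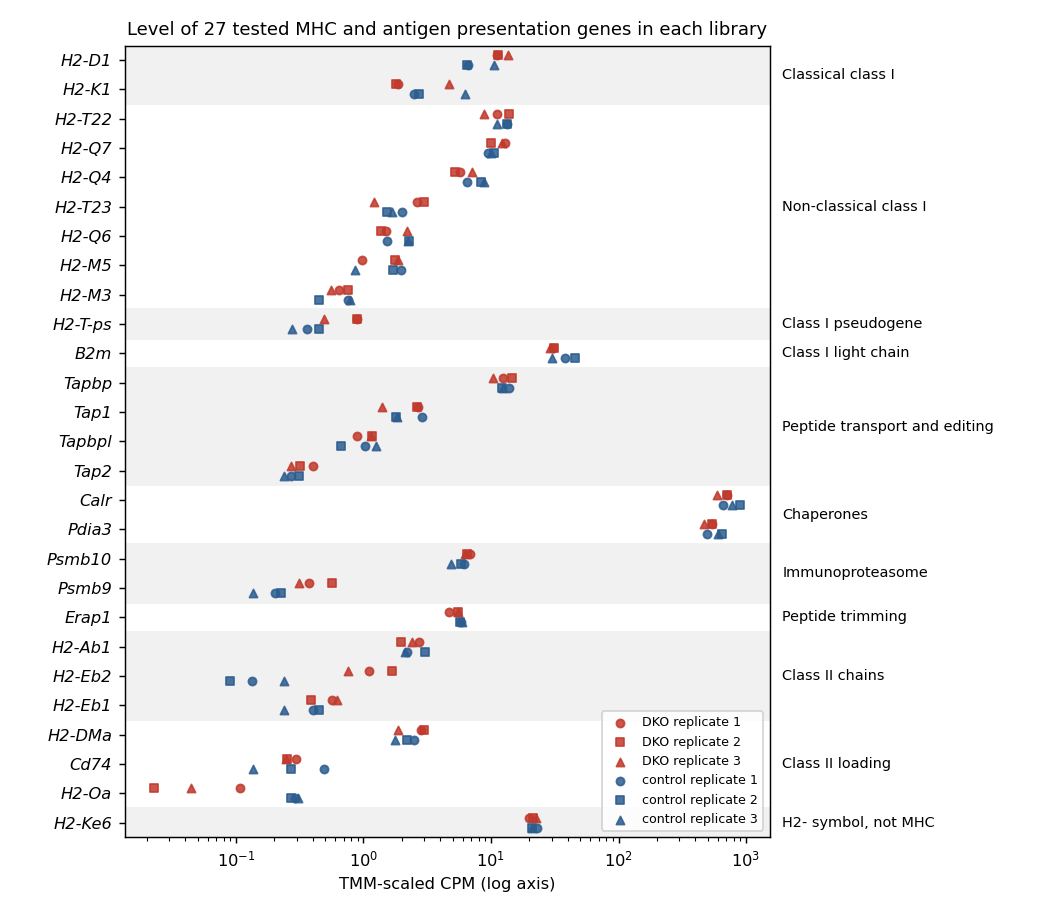
Level of the 27 tested genes in each of the 6 libraries, as TMM-scaled CPM on a log axis, grouped by role; red marks are DKO, blue marks are control, and shapes give the replicate number. The chaperones Calr and Pdia3 lie above 400 CPM in every library, B2m between 29.0 and 45.2 CPM, and the class II genes at 3.05 CPM or less.

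Class II chains present peptides taken up from outside the cell, and H2-Eb2 (chromosome 17, 34325503 to 34341410, plus strand) encodes an E beta chain. It measured 1.10, 1.67 and 0.760 CPM in DKO replicates 1 to 3 and 0.134, 0.0897 and 0.239 CPM in control replicates 1 to 3. These are 41, 73 and 34 counts against 6, 2 and 7 counts. Every DKO library was above every control library, with the lowest DKO value in replicate 3. The log2 fold change was 2.89 (SE 0.46; edgeR adjusted p = 0.0165). The call was lost without DKO replicate 1 (edgeR adjusted p = 0.0587), control replicate 1 (0.0837) or control replicate 2 (0.0785), while the log2 fold change stayed between 2.55 and 3.29. None of the 3343 stretches of 50 bases in its annotated transcripts occurs in the transcripts of another gene.

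No other class II gene was called. H2-Eb1, the neighbouring E beta chain gene, measured 0.566, 0.388 and 0.626 CPM in the DKO and 0.403, 0.449 and 0.239 CPM in control libraries (log2 fold change 0.53, edgeR adjusted p = 0.436), and the groups overlapped. H2-Ab1, the A beta chain gene, was the most abundant class II chain per length, at 0.919 CPM per kb in DKO and 0.959 in control libraries, beside 0.347 and 0.0455 for H2-Eb2. Its log2 fold change was -0.05, with a sign that differed in 3 of 14 alternatives. H2-Aa, the A alpha chain gene, had 8 counts over the DKO and 4 over the control libraries and stayed under the filter. The 4 chain genes summed to 4.13 ± 0.343 CPM in the DKO and 3.01 ± 0.517 CPM in control libraries (ratio 1.37, no overlap). That sum includes H2-Eb2, at 1.18 CPM in the DKO and 0.154 CPM in the control group. The separation was not seen in H2-Ab1, H2-Eb1 or H2-Aa, whose groups each overlapped. Cd74 stood at 0.265 ± 0.0278 and 0.299 ± 0.180 CPM (log2 fold change -0.26, edgeR adjusted p = 0.805).

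H2-Oa, named after its values were seen, encodes the alpha chain of H2-O, which restrains class II peptide exchange. It measured 0.108, 0.0228 and 0.0447 CPM in the DKO and 0.291, 0.269 and 0.308 CPM in control libraries, which is 4, 1 and 2 counts against 13, 6 and 9. The DKO libraries were all below the controls. The log2 fold change of -2.30 (SE 0.54) missed the threshold (edgeR adjusted p = 0.0651), as it did in each alternative that tested the gene, and the log2 fold change ranged from -2.98 (without DKO replicate 1) to -1.92 with 1 library left out. Its partner H2-Ob had no count. The class II peptide exchanger genes gave a log2 fold change of 0.25 for H2-DMa and, under the filter, 36 DKO and 16 control counts for H2-DMb1 and 9 and 8 for H2-DMb2.

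The transactivator Ciita (chromosome 16, 10480014 to 10531064) was too low to be tested. It had 5, 5 and 4 counts in the DKO libraries and 0, 1 and 0 counts in the controls. The groups did not overlap, and the depth-scaled ratio was 10.7 with a 95% exact interval of 1.63 to 454 that covers counting error only. With no expression filter edgeR gave an adjusted p of 0.159, and DESeq2 gave 0.322. Nlrc5 had 8, 13 and 9 counts in DKO and 4, 6 and 1 counts in control libraries. Scaled to depth, the groups overlapped (0.201 to 0.297 against 0.0342 to 0.269 CPM), and the ratio was 2.09 (95% exact interval 1.018 to 4.62).

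The 20 immune markers listed for this comparison all had counts, and edgeR called 0 of the 9 that were tested (1 had an unadjusted p under 0.05). Of those 9, 7 had log2 fold changes above 0, with a median of 0.30. The sum of the 20 was 11.6, 14.4 and 25.1 CPM in the DKO and 13.5, 17.4 and 15.7 CPM in control libraries, so the groups overlapped; Cd68 alone made up 8.72 ± 1.17 and 7.10 ± 2.08 CPM of it. The 2 tested markers with log2 fold changes below 0 were Laptm5 (-0.68) and Csf1r (-0.35), and both overlapped between the groups. Of the 9 tested, 1 (11.1%) had groups that did not overlap, beside 27.2% of all tested genes. The markers of the 20 whose groups did not overlap, named after their values were seen, were Itgam, Ptprc and Lyz2. Itgam of myeloid cells stood at 0.679 ± 0.322 and 0.214 ± 0.112 CPM (log2 fold change 1.59, edgeR adjusted p = 0.131). Ptprc, the pan-leukocyte gene, stood at 0.264 ± 0.124 and 0.109 ± 0.0232 CPM, and Lyz2 at 0.292 ± 0.123 and 0.120 ± 0.0459 CPM, both under the filter. The dendritic cell markers Flt3 and Itgax were near 0 in both groups (0.0151 and 0.00761 CPM in the DKO group, 0.0224 and 0.0114 CPM in the control group).

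Of the 12 endothelial markers, all had log2 fold changes above 0. Groups did not overlap for 4 (33.3%, beside 27.2% of all tested genes). EdgeR called 2 higher, Tie1 and Cd34 (16.7%, beside 2.19% of all tested genes). The sum of the 12 was 83.8 to 96.0 CPM in the DKO and 36.7 to 43.8 CPM in control libraries. Without Tie1 and Cd34, the remaining 10 summed to 34.8, 34.5 and 42.2 CPM in DKO replicates 1 to 3 and to 29.2, 26.8 and 28.7 CPM in control replicates 1 to 3, still with no overlap. The part of immune or endothelial cells in the H2-Eb2 difference was not tested.

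**Figure D2:**
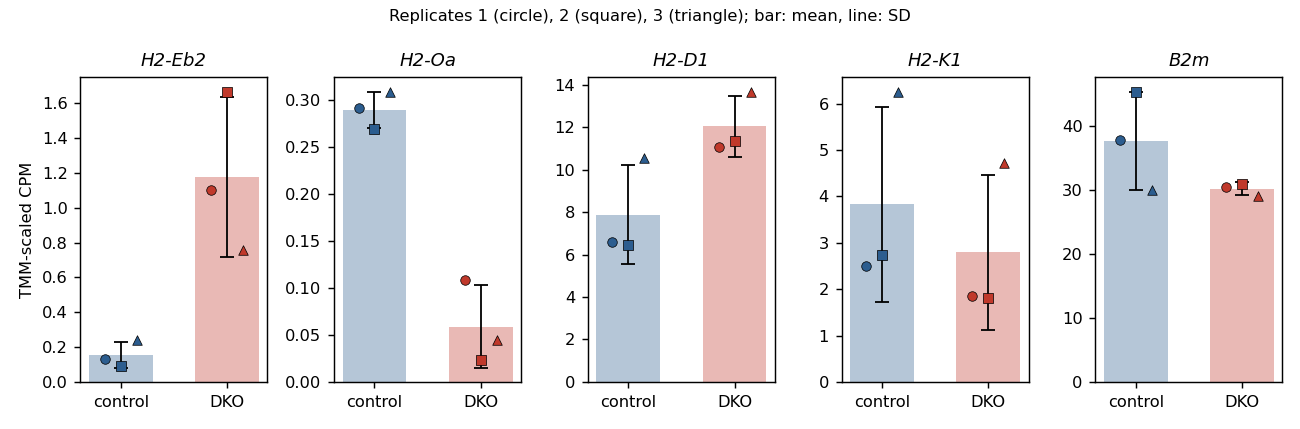
TMM-scaled CPM of 5 genes in the 3 control (blue) and 3 DKO (red) libraries; points are libraries, bars the mean and lines the SD, and each panel has its own axis. The groups are separate for H2-Eb2, H2-Oa and H2-D1, while for H2-K1 replicate 3 is the highest library of both groups and for B2m the control libraries spread from 29.9 to 45.2 CPM.

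Classical class I heavy chains were expressed at a low level and gave no call. H2-D1 (chromosome 17, 35263094 to 35267497) measured 11.1, 11.4 and 13.7 CPM in the DKO and 6.60, 6.46 and 10.56 CPM in control libraries. Every DKO library was above every control library, but the mean difference, 12.04 ± 1.42 against 7.87 ± 2.33 CPM, had an edgeR adjusted p of 0.155 (log2 fold change 0.61, SE 0.21, 1.53-fold). H2-K1 (chromosome 17, 33996012 to 34000619) measured 1.86, 1.80 and 4.72 CPM in the DKO and 2.51, 2.74 and 6.26 CPM in control libraries. Replicate 3 was the highest in both groups, and the groups overlapped. The log2 fold change of H2-K1 was -0.45 (SE 0.50, edgeR adjusted p = 0.645), and it turned to 0.10 without control replicate 3. Per length, H2-D1 stood at 4.67 CPM per kb in DKO and 3.05 in control libraries, above H2-K1 at 0.951 and 1.30.

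The light chain gene B2m (chromosome 2, 122147687 to 122153082) was far more abundant per length than any heavy chain gene, at 35.1 CPM per kb in DKO and 43.8 in control libraries. By library it measured 30.5, 31.0 and 29.0 CPM in the DKO and 37.8, 45.2 and 29.9 CPM in controls. The third control lay within the range of the DKO libraries. The log2 fold change was -0.32 (SE 0.14; unadjusted p = 0.0509, edgeR adjusted p = 0.241).

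The non-classical class I genes, whose products present restricted ligands or serve as ligands of natural killer cells, made up most of the heavy chain RNA. The 26 genes placed here include H2-Bl and H2-T10, which RefSeq and GENCODE list as types of pseudogene. Of the 26, 10 had no count, 9 were under the filter and 7 were tested. EdgeR called 0 of the 7 (0 with an unadjusted p under 0.05), with log2 fold changes from -0.38 to 0.38. H2-T22, a ligand of gamma-delta T cells, measured 11.2, 13.8 and 8.76 CPM in the DKO and 13.4, 13.3 and 11.1 CPM in control libraries (log2 fold change -0.17, edgeR adjusted p = 0.637). H2-Q7, which encodes a Qa-2 molecule, measured 12.8, 10.01 and 12.1 against 9.39, 10.59 and 10.08 CPM (log2 fold change 0.22, edgeR adjusted p = 0.391). Both genes overlapped between the groups. Summed over all class I heavy chain genes, the level was 50.3 ± 1.93 CPM in the DKO and 48.5 ± 3.93 CPM in control libraries, a ratio of 1.04.

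Near-identical copies limit these values, since the counting program and its treatment of shared reads are not given. Of the 50-base stretches of H2-T22 transcripts, 31.25% also occur in H2-T10, which had no count. Shared stretches with any other gene came to 26.4% for H2-Q7, 12.8% for H2-D1 and 9.63% for H2-K1, and to 0% for B2m. H2-T-ps, placed here as a class I pseudogene, is a pseudogene in GENCODE but protein coding in RefSeq. It is named after its values were seen. It measured 0.889, 0.891 and 0.492 CPM in the DKO and 0.358, 0.449 and 0.273 CPM in control libraries. The groups did not overlap, but the log2 fold change of 1.08 was not called (edgeR adjusted p = 0.155), and 17.98% of its 50-base stretches occur in H2-T23.

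The genes with no count in any of the 6 libraries were H2-Bl, H2-M10.3, H2-M10.4, H2-M10.5, H2-M10.6, H2-M2, H2-M9, H2-Ob, H2-Q8, H2-Q9 and H2-T10. A count of 0 over all libraries allows a level of up to 0.0135 CPM, for counting error only. This limit assumes that reads could be assigned to the gene. H2-Q8 and H2-Q9 are not listed in GENCODE M21, and 32.9% of the 50-base stretches of H2-T10 occur in other genes. For these genes the limit may not hold. A further 9 non-classical genes had between 1 and 44 counts in all and overlapped between the groups, with H2-Q10 the highest at 22 counts in each group.

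Of the 6 peptide transport, editing and chaperone genes edgeR called 0 (0 with an unadjusted p under 0.05). Tap1 measured 2.67, 2.63 and 1.39 CPM in the DKO and 2.89, 1.79 and 1.85 CPM in control libraries (log2 fold change 0.02, edgeR adjusted p = 0.983). Tap2, the other chain of the transporter, stood at 0.331 ± 0.0687 and 0.274 ± 0.0377 CPM (log2 fold change 0.27, edgeR adjusted p = 0.704). Tapbp stood at 12.5 ± 2.16 and 12.8 ± 0.862 CPM (log2 fold change -0.03), and Tapbpl, a related peptide editor, at 1.06 ± 0.152 and 0.989 ± 0.298 CPM (log2 fold change 0.09). All 4 overlapped between the groups, and their sum had a ratio of 0.995. The general chaperones Calr and Pdia3 were the most abundant genes here per length, at 232 and 165 CPM per kb in DKO and 270 and 184 in control libraries. Their log2 fold changes were -0.22 (SE 0.13) and -0.16 (SE 0.12), with edgeR adjusted p-values of 0.364 and 0.455. Erap1, which trims peptides, is named after its values were seen. It was lower in every DKO library (4.72 to 5.48 against 5.74 to 5.91 CPM). It was not called (log2 fold change -0.15, edgeR adjusted p = 0.600). With scaling by library size only, its groups overlapped.

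Immunoproteasome subunits replace the standard catalytic subunits in cells exposed to interferon. Psmb9 measured 0.377, 0.571 and 0.313 CPM in the DKO and 0.201, 0.224 and 0.137 CPM in control libraries. Its groups did not overlap and its log2 fold change was 1.16 (SE 0.41), but it was not called (edgeR adjusted p = 0.165), and the counts were 4 to 25 per library. Psmb10 measured 6.82, 6.44 and 6.30 CPM in the DKO and 6.13, 5.83 and 4.89 CPM in controls, again without overlap (log2 fold change 0.21, edgeR adjusted p = 0.462). Psmb8 had 2 counts over the DKO and 3 over the control libraries. Psmb9 and Tap1 start head to head on chromosome 17, and their RefSeq windows overlap. The log2 fold change of Tap1 was 0.02 (SE 0.32). A difference between the 2 genes was not tested.

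Of the 27 tested genes, 7 (25.9%) had groups that did not overlap, beside 27.2% of all tested genes (14.5% higher and 12.7% lower). H2-Eb2, H2-D1, H2-T-ps, Psmb9 and Psmb10 were higher, and H2-Oa and Erap1 were lower (Erap1 overlapped with library size only). An unadjusted p under 0.05 was reached by 5 of the 27, beside 20.9% of all tested genes. H2-Ke6 carries an H2- symbol but encodes a hydroxysteroid dehydrogenase and not an MHC chain, and it stood at 21.4 ± 1.39 and 21.7 ± 1.04 CPM (log2 fold change -0.02).

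**Figure D3:**
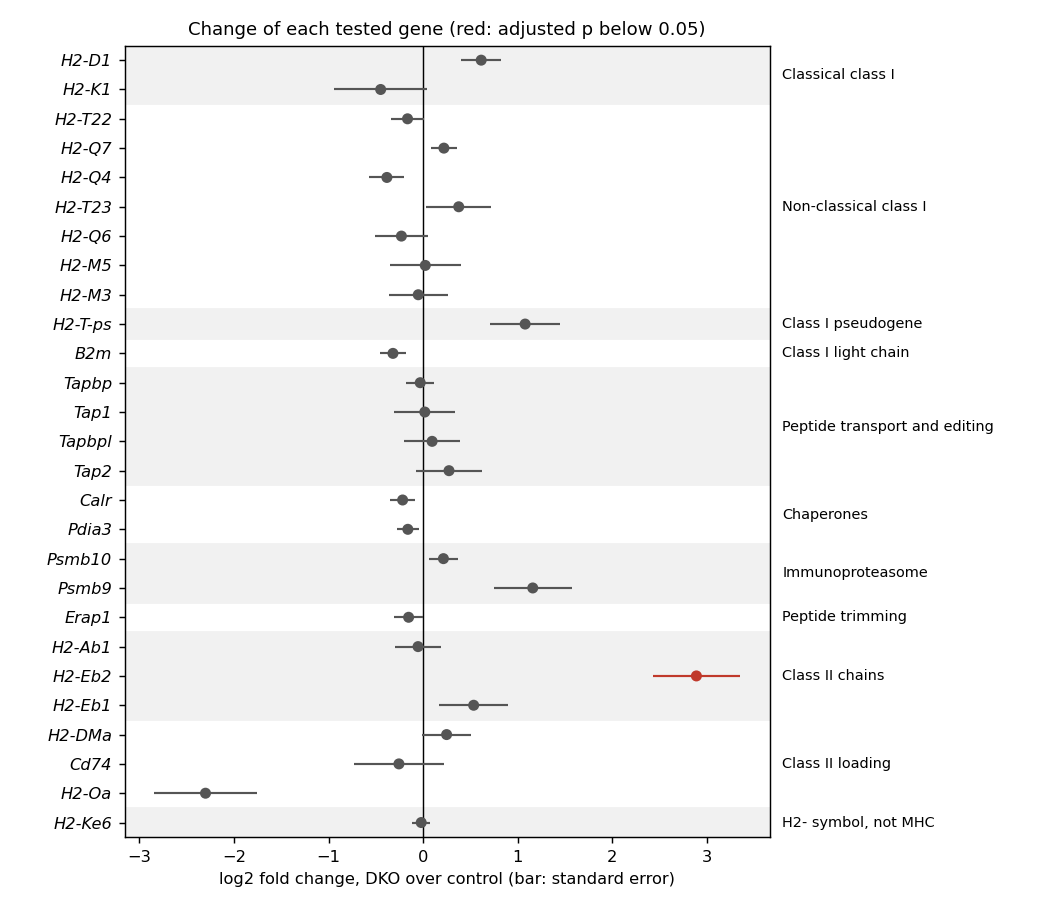
Log2 fold change of DKO over control for the 27 tested genes, grouped by role; points are the edgeR estimate, bars its standard error, and red marks an adjusted p below 0.05. H2-Eb2 at 2.89 is the single red point, H2-Oa at -2.30 is the lowest, and most others lie within about 0.5 of 0.

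The genes that surround this pathway were taken from 7 lists with 56 genes, none of which is in the group above. Of the 52 tested, edgeR called 0 (10 had an unadjusted p under 0.05, and DESeq2 called 2, Canx lower and Hfe higher, beside 7.27% of all genes it tested). Over all tested genes, 20.9% had an unadjusted p under 0.05 in edgeR. The log2 fold changes of the 52 had a median of -0.01, with 25 above and 27 below 0. Groups did not overlap for 12 genes (23.1%), 3 higher and 9 lower, beside 27.2% of all tested genes (14.5% higher and 12.7% lower). The log2 fold changes of the 10 interferon signalling genes, receptors and their kinases among them, lay between -0.19 and 0.19 (0 called by edgeR, 0 with an unadjusted p under 0.05). The 12 factors that act on MHC promoters, among them Rfx5, Rfxap, Rfxank and the NF-Y subunits, gave 0 calls (1 with an unadjusted p under 0.05). The 3 standard catalytic proteasome subunits and the 4 proteasome activators gave 0 calls (0 and 2 with an unadjusted p under 0.05). The 7 other class I loading genes, Canx among them, gave 0 calls by edgeR (4 with an unadjusted p under 0.05). Of these 7, 6 had log2 fold changes below 0. Groups did not overlap for 3 (42.9%, beside 27.2% of all tested genes), all 3 lower. The 8 tested genes of the class II route gave 0 calls (1 with an unadjusted p under 0.05), with 6 log2 fold changes below 0.

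The list of MHC class I-like genes holds genes whose products share the class I fold but do not belong to the H2 complex. All 8 that were tested had log2 fold changes above 0 (0.09 to 1.19, median 0.67), with 0 calls by edgeR (2 with an unadjusted p under 0.05). Hfe, which regulates iron uptake, and Procr, the endothelial protein C receptor, are named after their values were seen. Hfe measured 3.26, 2.74 and 1.94 CPM in the DKO and 1.41, 1.08 and 1.30 CPM in control libraries (log2 fold change 1.06, edgeR adjusted p = 0.0764). Procr measured 1.19, 1.67 and 1.36 CPM in the DKO and 0.626, 0.449 and 0.786 CPM in controls (log2 fold change 1.16, edgeR adjusted p = 0.0770). In both the DKO libraries were above every control library. The endothelial marker sum given above was also higher in every DKO library, and its part in these values was not tested.

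Distance from Ehmt2 was examined because 42 of the 53 genes lie in the MHC cluster on the same chromosome. Of the 20 tested genes in the cluster, 1 was called (5%, beside 3.01% of all tested genes). An unadjusted edgeR p under 0.05 was reached by 5 of the 20, beside 20.9% of all tested genes. Of the 7 tested genes elsewhere in the genome edgeR called 0 (0 with an unadjusted p under 0.05). H2-Q8 and H2-Q9 had no agreed position. Within 1 Mb of Ehmt2, 86 genes were tested and 2 were called (2.33%), beside 2.98% of the genes on chromosomes other than 2 and 17. These were H2-Eb2, whose nearer end lies 0.557 Mb from Ehmt2, and Vars2, the mitochondrial valyl-tRNA synthetase, at 0.742 Mb. Vars2 measured 80.2, 87.8 and 85.02 CPM in the DKO and 48.0, 48.9 and 45.6 CPM in control libraries (log2 fold change 0.83, edgeR adjusted p = 0.00119), so its groups were far apart relative to their spread. The other 14 MHC and antigen presentation genes tested in that window were not called.

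Of the 71 genes within 1 Mb that are not MHC or antigen presentation genes, 1 was called (1.41%). From 1 to 5 Mb, 3 of 66 such genes were called (4.55%), from 5 to 20 Mb 9 of 312 (2.88%), and on the rest of the chromosome 3 of 221 (1.36%). Groups did not overlap for 29.1% of the tested genes within 1 Mb, beside 27.2% of all. Around Ehmt1 on chromosome 2, where no gene of this group lies within 20 Mb, 3 of the 40 tested genes within 1 Mb were called (7.5%). No test was made of these shares.

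**Figure D4:**
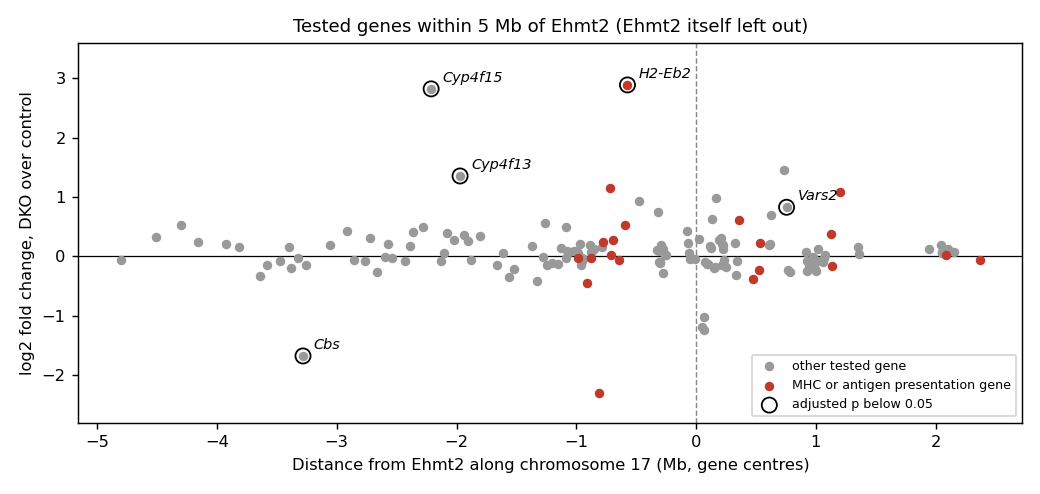
Log2 fold change of DKO over control against distance from Ehmt2, for tested genes within 5 Mb on chromosome 17; red points are MHC and antigen presentation genes, grey points are other genes, and rings mark an adjusted p below 0.05. The called genes are H2-Eb2 and Vars2 within 1 Mb and Cyp4f13, Cyp4f15 and Cbs beyond it, and most points of both colours lie near 0.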

How the data were processed

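Whole-number counts per gene symbol were deposited by the authors, unnormalized. Named in the submitters' processing notes are STAR 2.7.10a, Trim Galore, Picard and build mm10. Not given in the sources used here are the counting program, strand setting, annotation and treatment of duplicates. Columns headed WT were taken as the controls. Counts were fitted with edgeR 4.0.16 (R 4.3.3): filterByExpr (minimum count 10, minimum total 15), TMM scaling, the robust quasi-likelihood test, 2-sided, with group as the only term, and Benjamini-Hochberg adjustment over 14555 genes. The script was tested on simulated data. Levels are TMM-scaled CPM with the SD over 3 libraries, a length is that of the GENCODE M21 exon union, and coordinates come from RefSeq GRCm38.p6, counted from 1. Alternatives used DESeq2 1.42.0, limma 3.58.1 voom, other scalings and filters, and each library left out.

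The genes, lists, markers and motifs were chosen with earlier results of these data known. Named by rule are the targets, called genes, those averaging at least 10 CPM, and the classical class I, light chain, transport, immunoproteasome and transactivator genes. Other named genes fell outside this rule and were named with their values known, and not all are marked so. Unmarked ones include H2-Eb1, H2-Ab1, H2-Aa, Cd74, H2-DMa, H2-M3 and H2-Q10. Not every same-numbered pair of libraries deviated together, so the numbers were not taken as pairs.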

Additional observations from a re-analysis of the deposited data

How the results depend on the processing

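H2-Eb2 kept its direction in every alternative that tested it and was called in 10 of 13. The number of called MHC and antigen presentation genes, 1, became 0 with a filter of at least 1 CPM in 3 libraries (19 tested, without H2-Eb2) and ranged from 0 to 1 with 1 library left out. H2-Eb2 had an adjusted p of 0.000429 with DESeq2, 0.0286 with limma-voom and 0.0424 in edgeR's test against a 1.5-fold change. Of the 27 tested genes, 26 were called in no fit and 19 kept their sign in every alternative that tested them (12 to 14 per gene).

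With the replicate number as a block, H2-Eb2 gave a log2 fold change of 2.80 (edgeR adjusted p = 0.00850), the calls within 1 Mb of Ehmt2 rose from 2 to 4 and those over all genes from 438 to 619; same-numbered libraries correlated at 0.06, -0.04 and 0.34, DKO replicate 2 correlated best with control replicate 1 (0.44), and among the named genes the block added Mucl3 and changed no other call. The calls within 1 Mb of Ehmt2 were 1 with the CPM filter, 1 against a 1.5-fold change and 5 with DESeq2, and 1 to 4 with 1 library left out. Those within 1 Mb of Ehmt1 went from 3 to 0 against a 1.5-fold change and ranged from 1 to 5 with 1 library left out. The other pathway genes went from 0 calls to 2 with DESeq2 and ranged from 0 to 5, the 5 without DKO replicate 3, whose removal took all calls from 438 to 1106. Against a 1.5-fold change Ehmt1 (edgeR adjusted p = 0.277) and Vars2 (0.0785) lost the call. All calls were 122 against a 1.5-fold change, 1121 with DESeq2, and 131 and 246 without DKO replicates 1 and 2, and 155, 170 and 197 without control replicates 1 to 3.

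Signs near 0 turned as follows. H2-Ke6 became 0.057 with library size only, and ranged from -0.066 to 0.030 with 1 library left out. Tapbp became 0.046 with library size only, and ranged from -0.16 to 0.087. Tap1 became -0.061 with limma-voom, and ranged from -0.13 to 0.30. Tapbpl ranged from -0.089 (without control replicate 2) to 0.29, and H2-K1 from -1.06 (without DKO replicate 3) to 0.10 (without control replicate 3). The sign also differed in 3 of 14 alternatives for H2-Ab1 and for H2-M5, and in 4 of 13 for H2-M3. The cause was not tested. Scaling by library size only moved the median of all genes from -0.01 to 0.07 and that of the 27 from -0.02 to 0.06.

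The ratio of the class sums ranged over the left-out libraries from 1.12 to 1.62 for classical class I (highest without control replicate 3), from 1.28 to 1.52 for class II chains, from 1.12 to 1.25 for the immunoproteasome and from 1.001 to 1.08 for all class I heavy chains. With library size only it was 1.26 for the immunoproteasome and 1.10 for all class I heavy chains. Depth limits H2-Eb2, H2-Oa, Psmb9 and Ciita, which rest on 0 to 73 counts per library.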

Other observations

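The heat shock genes Hspa1a and Hspa1b, which lie in the MHC region 0.0553 and 0.0424 Mb from Ehmt2, varied strongly among the libraries. Hspa1a measured 56.4, 57.2 and 26.5 CPM in the DKO and 79.8, 202 and 49.7 CPM in control libraries, and Hspa1b measured 121, 124 and 60.0 against 172, 431 and 96.0 CPM. Control replicate 2 was the highest for both genes, the groups overlapped, and neither was called (edgeR adjusted p = 0.333 and 0.356). Mucl3, 0.722 Mb from Ehmt2, stood at 1.32 CPM in the DKO and 0.496 CPM in control libraries without overlap (log2 fold change 1.46, edgeR adjusted p = 0.0616). BC051142, between H2-Eb2 and Ehmt2, stood at 1.63 ± 0.509 and 0.852 ± 0.0444 CPM without overlap (log2 fold change 0.93, edgeR adjusted p = 0.131). All 4 were chosen after their values were seen.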
